A study of Mus musculus with 5 samples.

Results

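Genes of the T-cell receptor complex and its signalling were followed through 4 libraries of sorted mouse CD4 T cells. The set held 8 genes, chosen by name from the 10291 genes listed in the 4 count tables: Trac, Trbc2, Cd3d, Cd3e, Cd3g, Cd4, Lat and Ptprc. The libraries were colon cells of light-treated mice, colon cells of control mice, lymph node cells of light-treated mice and lymph node cells of control mice, with 1 library in each group; the lymph node libraries carry the label mLN. The series' design text ties the mice to autoimmune colitis, and both light and control groups share that description. Light was given with a 980 nm laser at an output of 1.22 W and 80% duty over a spot of 4 cm2, for 5 minutes every 2 days. Genotype, strain, age and the number of animals behind a library are not given in the sources used here. Every error below is a 95% counting interval, and no difference has a replicate check.

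The T-cell receptor recognises peptide held by an MHC molecule through an alpha and a beta chain, whose constant parts are encoded by Trac and by Trbc1 or Trbc2. These chains have no signalling tail of their own and pass the signal on through the CD3 chains, which carry tyrosine motifs that the kinase Lck phosphorylates. The CD4 co-receptor brings Lck to the complex on cells that see MHC class II, the phosphatase CD45 (Ptprc) keeps Lck ready to act, and the adaptor LAT gathers the enzymes that start calcium, Ras and NF-kB signalling. The receptor, CD3 and Cd4 genes are the usual means of recognising a CD4 T cell.

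Depth set what could be read. RNA was captured by its poly(A) tail with a probe that carries a barcode and a molecular identifier. Each table gives whole-number counts over 379 to 384 barcode columns, and the columns of a table repeat the same molecules. A molecule here is a count repeated over a fixed set of columns. A gene's summed count, divided by how many columns a molecule fills when molecules are weighted by size (49.9 in colon light, 70.6 in colon control, 51.0 in lymph node light and 84.6 in lymph node control), is its molecule-equivalents. A library held 39264 molecule-equivalents in colon light and 6140 in colon control, and 20961 in lymph node light and 11476 in lymph node control. Levels are CPM, a gene's molecule-equivalents over the library total times 1e6, and are not divided by transcript length, so they are compared between libraries and not between genes. A level resting on fewer than 3 molecule-equivalents was treated as under the floor, which was 76.4 CPM in colon light, 489 CPM in colon control, 143 CPM in lymph node light and 261 CPM in lymph node control.

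In the colon control table the lines of the CD3 genes and of Cd4 equal those of the lymph node control at 382 of 382 column positions, although these libraries share only 5 barcodes, and they were not used. The colon control was therefore described by Trac, Trbc2, Lat and Ptprc alone. Trac had no line there, and the other 3 genes came to 4 molecules: 1 of Trbc2, 1 of Lat and 2 of Ptprc. The labelled cell type could not be checked in this library by its CD3 or CD4 genes. In the other libraries all 8 genes were found.

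Together the 8 genes took 0.314% of the colon light library (0.261 to 0.374%), 0.792% of the lymph node light library (0.676 to 0.921%) and 0.794% of the lymph node control library (0.640 to 0.974%). The lymph node libraries thus differed by far less than their counting error, and the colon light library lay below both. Fewer T cells and less RNA of these genes per cell cannot be told apart in such bulk libraries. The genes were spread over the libraries rather than stacked in a few column sets. Their 194 molecules in lymph node light fell in 128 of 281 column sets, with at most 12 molecules in a set, and their 93 molecules in lymph node control fell in 72 of 306.

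**Figure D1:**
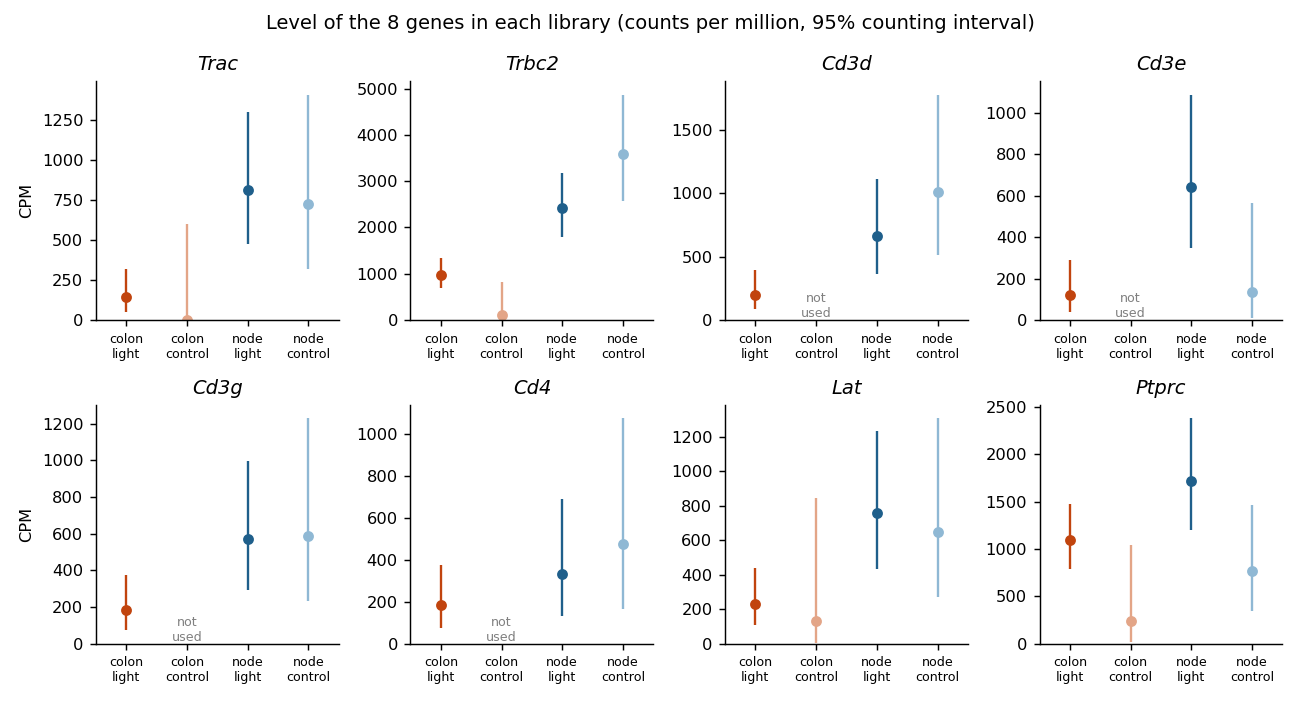
Level of each of the 8 genes in CPM (vertical axis, from 0) in the 4 libraries (horizontal axis; 1 library each), with 95% counting intervals as bars. Colon light lies below lymph node light for every gene; Cd3e and Ptprc are the genes whose lymph node light point stands farthest above the lymph node control point, at 641 against 134 CPM and 1721 against 764 CPM.

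The receptor chains came first. Trac, the only constant gene of the alpha chain (chr14:54220521-54224206, plus strand, mm10), stood at 144 CPM in colon light, on 9 molecules, and had no line in the colon control table. It stood at 812 CPM in lymph node light (20 molecules) and 726 CPM in lymph node control (10 molecules). The intervals of the lymph node libraries overlapped widely, and the interval of colon light (51.1 to 321 CPM) lay wholly below that of lymph node light (473 to 1300 CPM). Trbc2, a beta chain constant gene (chr6:41546730-41548352, plus strand), was at 981 CPM in colon light and 108 CPM in colon control, where a single molecule carried it. In the lymph node it was at 2419 CPM after light (54 molecules) and 3592 CPM in the control (41 molecules). Colon light was below both lymph node libraries, which overlapped.

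Trbc1, the other beta chain constant gene, is no member of the set but lies 6848 bases away from Trbc2 on chromosome 6 and is close to it in sequence. The shorter Trbc1 transcript of GENCODE M21 was identical to Trbc2 at 488 of 512 aligned bases (95.3%), while the bases after that were identical at 62.6% of 179. Reads from the shared stretch could have been given to either gene or to neither, so the split between them is uncertain. Trbc1 stood at 329 CPM in colon light and had no line in the colon control table, and stood at 1063 CPM in lymph node light and 1248 CPM in lymph node control. Its ratio to Trbc2 was 0.335 in colon light (0.164 to 0.643), 0.439 in lymph node light (0.254 to 0.737) and 0.347 in lymph node control (0.176 to 0.647). The balance of both genes thus stayed within counting error over these 3 libraries.

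The 3 CD3 genes lie side by side on chromosome 9. Cd3g (chr9:44969572-44980431, minus strand) and Cd3d (chr9:44981786-44987339, plus strand) start back to back with 1354 bases between them, and Cd3e (chr9:44998740-45009627, minus strand) follows 11400 bases further on. The 3 neighbours were lower together in colon light, while Ptprc kept more of its level. Whether promoter sequence has a part in this was not tested. The promoters of the CD3 genes, with that of Ptprc for contrast, are given below. Each runs 5′ to 3′ on the gene's own strand from 250 bases before to 50 bases after the RefSeq start (GRCm38.p6), at chr9:44980382-44980681 for Cd3g, chr9:44981536-44981835 for Cd3d, chr9:45009562-45009861 for Cd3e and chr1:138175256-138175555 for Ptprc. Capitals mark AGGAAG or its reverse complement CTTCCT, a core bound by ETS factors such as Ets1.
Cd3g: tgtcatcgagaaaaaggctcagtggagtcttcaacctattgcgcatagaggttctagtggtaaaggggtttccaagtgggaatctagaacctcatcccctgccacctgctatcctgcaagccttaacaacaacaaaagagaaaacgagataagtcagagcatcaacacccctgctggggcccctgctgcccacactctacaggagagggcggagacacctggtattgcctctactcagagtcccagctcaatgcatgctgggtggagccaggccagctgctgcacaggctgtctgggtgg
Cd3d: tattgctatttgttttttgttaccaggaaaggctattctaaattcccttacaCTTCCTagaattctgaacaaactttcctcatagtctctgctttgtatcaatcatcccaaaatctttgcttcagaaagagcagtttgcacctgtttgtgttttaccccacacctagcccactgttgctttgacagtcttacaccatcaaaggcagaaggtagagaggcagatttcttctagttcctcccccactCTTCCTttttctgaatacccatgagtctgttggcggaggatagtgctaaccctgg
Cd3e: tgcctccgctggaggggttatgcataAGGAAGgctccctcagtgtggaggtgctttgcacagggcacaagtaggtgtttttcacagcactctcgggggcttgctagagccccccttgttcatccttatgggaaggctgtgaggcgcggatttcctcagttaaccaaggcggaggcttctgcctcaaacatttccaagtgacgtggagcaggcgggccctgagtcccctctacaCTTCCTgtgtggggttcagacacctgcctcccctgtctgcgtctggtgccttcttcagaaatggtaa
Ptprc: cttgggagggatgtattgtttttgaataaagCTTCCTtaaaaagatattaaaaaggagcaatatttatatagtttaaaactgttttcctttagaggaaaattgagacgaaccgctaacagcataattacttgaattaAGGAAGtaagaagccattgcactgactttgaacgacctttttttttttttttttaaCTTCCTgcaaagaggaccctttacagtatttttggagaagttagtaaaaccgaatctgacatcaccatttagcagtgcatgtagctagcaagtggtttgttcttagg
The Cd3d and Cd3e windows each hold 2 such matches, the Ptprc window 3 and the Cd3g window 0, and the promoter of Lat, not printed, holds 2. Of 32851 RefSeq promoter windows of the same length, 35.4% hold at least 1, searched on both strands. Of 4 other motifs searched in the same way, CAGGTG or its reverse complement CACCTG, an E-box, lies in all 3 CD3 windows and in neither that of Ptprc nor that of Lat, beside 20.2% of all windows. The E-box CAGCTG (16.3% of windows) and the GATA motif AGATAA (11.2%) each lie once in the Cd3g window alone, and the RUNX motif TGTGGT (16.8%) once in that of Lat alone. Ptprc has 2 listed RefSeq starts, and only the window of the first listed was used for it, so its matches hold for that window alone. The motifs were picked with these sequences in view, and a match is a run of letters, not a measured site.

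Cd3d, which encodes the delta chain, was at 199 CPM in colon light (11 molecules), 662 CPM in lymph node light (15 molecules) and 1006 CPM in lymph node control (11 molecules). Cd3g, the gene of the gamma chain, was at 184 CPM in colon light (12 molecules), 569 CPM in lymph node light (16 molecules) and 590 CPM in lymph node control (7 molecules). Both genes were lowest in colon light, and neither parted the lymph node libraries. Cd3e, which encodes the epsilon chain that pairs with each of the other two, had another order. It was at 121 CPM in colon light (5 molecules), 641 CPM in lymph node light (15 molecules) and 134 CPM in lymph node control (2 molecules, 1.54 molecule-equivalents and so under the floor).

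Within the lymph node control, Cd3e came to 0.133 of Cd3d (0.00910 to 0.696), against 0.968 in lymph node light (0.422 to 2.21) and 0.608 in colon light (0.151 to 2.16). These intervals overlapped, which does not by itself decide whether the ratios differ. An unequal balance of the CD3 genes was neither shown nor excluded at this depth. Cd3e is overlapped by the annotated genes Gm48719, on the opposite strand, and Gm48720, and the sources used here do not say whether counting used strand. Gm48719 was listed in 0 of the 4 tables, and Gm48720 in lymph node light alone, with a summed count of 40 beside 685 for Cd3e. Summed, the 3 CD3 genes stood at 504 CPM in colon light, 1872 CPM in lymph node light and 1730 CPM in lymph node control.

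Cd4, the co-receptor gene by which the cells were named (chr6:124864692-124888221, minus strand), was at 186 CPM in colon light (11 molecules), 334 CPM in lymph node light (8 molecules) and 478 CPM in lymph node control (5 molecules). The 3 intervals overlapped. Set against the summed CD3 genes, Cd4 came to 0.368 in colon light (0.134 to 0.898), 0.178 in lymph node light (0.0674 to 0.403) and 0.276 in lymph node control (0.0859 to 0.735). These intervals overlapped too, and the differences between the ratios were not tested. Of the genes of CD8, the co-receptor of the other main T-cell class, Cd8a had no count in any of the 4 libraries and Cd8b1 had a count in colon light alone.

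Lat, the adaptor gene (chr7:126363824-126369570, minus strand), was at 232 CPM in colon light (12 molecules) and 129 CPM in colon control (1 molecule, under the floor). It was at 760 CPM in lymph node light (19 molecules) and 649 CPM in lymph node control (8 molecules). Its ratio to the CD3 genes hardly moved, at 0.460 in colon light (0.185 to 1.05), 0.406 in lymph node light (0.212 to 0.743) and 0.375 in lymph node control (0.138 to 0.908).

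Ptprc, the gene of CD45 (chr1:138062861-138175708, minus strand), is expressed by nearly all white blood cells and not by T cells alone. It was at 1092 CPM in colon light (55 molecules) and 240 CPM in colon control (2 molecules, under the floor). In the lymph node it was at 1721 CPM after light (47 molecules) and 764 CPM in the control (9 molecules). Its order differed from that of the receptor genes: colon light lay above the lymph node control, with overlapping intervals, where the receptor genes lay below it. The annotated transcript A130071D04Rik overlaps Ptprc on the same strand and had a summed count of 37 in colon light, 253 in lymph node light and 260 in lymph node control, beside 2140, 1839 and 742 for Ptprc.

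Light against control in the lymph node asked what 980 nm light did to CD4 T cells there. Receptor, co-receptor and adaptor genes did not separate the libraries, and Ptprc was higher after light. Of the 8 genes, 2 were at least 2-fold higher (Cd3e and Ptprc) and 0 were lower by that much. Among the 186 genes tested, which had 20 or more molecule-equivalents in the 2 libraries together, 4.84% were higher and 5.91% lower by 2-fold or more. That minimum was met by 5 of the 8 genes (Trac, Trbc2, Cd3d, Lat and Ptprc) and not by Cd3e, so these shares are not over like genes. Ptprc met it through lymph node light, where it was high, with 36.1 molecule-equivalents against 8.77 in the control. Its place beside the shares of all genes is therefore a description alone. Ptprc was 2.20-fold higher after light, a log2 ratio of 1.14 (0.08 to 2.43), and was the only member whose interval left out 0; an interval above 0 was found for 4.84% of the 186 genes and one below 0 for 8.6%. Thinning the deeper library to the depth of the other widened the Ptprc interval to -0.04 to 2.51. Intervals are not adjusted for the 8 genes looked at.

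The receptor genes leaned either way. Trac had a log2 ratio of 0.16 (-1.11 to 1.56), Trbc2 of -0.56 (-1.19 to 0.06) and Trbc1 of -0.23 (-1.25 to 0.84). Counting each recovered molecule once moved the Trbc2 interval just below 0, at -0.71 (-1.33 to -0.09). Cd3d was at -0.58 (-1.84 to 0.66), Cd3g at -0.05 (-1.53 to 1.56), Cd4 at -0.48 (-2.35 to 1.40) and Lat at 0.22 (-1.11 to 1.71). Cd3e had the highest ratio, 2.03, but its interval ran from -0.08 to 6.11 and rested on 2 molecules in the control.

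The summed 8 genes stood at 7917 CPM after light and 7939 CPM in the control, a log2 ratio of -0.004 (-0.38 to 0.38). The median of all genes tested was -0.16. Scaling by TMM or by the median of ratios raised the ratios by up to 0.47 or 0.48, which put the summed ratio at 0.47 or 0.48 with an interval above 0 and changed the count of all genes at least 2-fold higher and lower from 9 and 11 to 32 and 2. Under these scalings the Cd3e interval also lay above 0, and the Cd3g ratio turned positive (0.40 and 0.41). The closeness of the summed levels thus holds for CPM and not under these scalings.

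**Figure D2:**
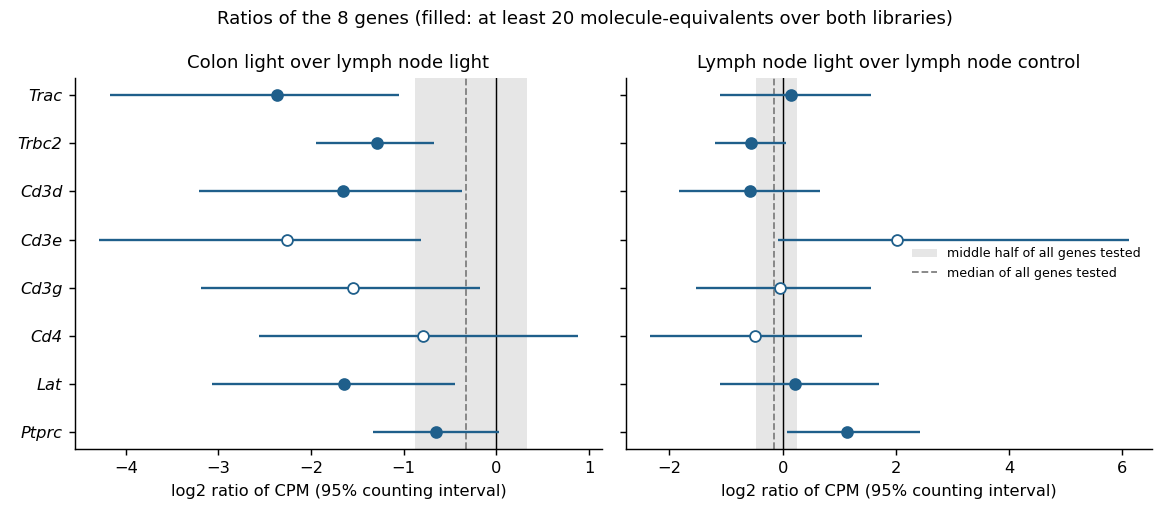
Log2 ratio of CPM (horizontal axis) of each of the 8 genes (rows), for colon light over lymph node light at left and lymph node light over lymph node control at right, with 95% counting intervals; the grey band and dashed line give the quartiles and the median of all genes tested, and open points mark genes under 20 molecule-equivalents. At left all points lie below 0 and Ptprc lies nearest to it; at right Ptprc alone has an interval that leaves out 0.

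The make-up of the sum differed between the lymph node libraries. Ptprc held 21.7% of the summed 8 genes after light and 9.62% in the control, while Trbc2 held 30.5% after light and 45.3% in the control. Against the 6 receptor and co-receptor genes together, Ptprc came to 0.316 after light (0.211 to 0.464) and 0.117 in the control (0.0509 to 0.236). A ratio taken within a library does not depend on how the libraries are scaled. The intervals overlapped slightly, and overlap of separate intervals does not decide whether the ratios differ. The difference itself was not tested. In colon light this ratio was 0.602 (0.402 to 0.891), above the lymph node control without overlap.

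**Figure D3:**
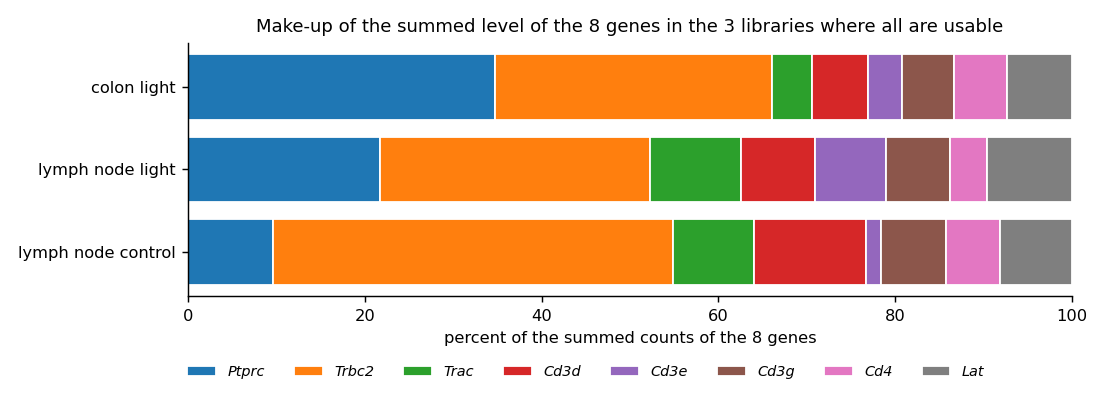
Share of each of the 8 genes in their summed counts (horizontal axis, percent) in colon light, lymph node light and lymph node control. Ptprc takes 34.8%, 21.7% and 9.62% of the bar in that order, and Trbc2 31.2%, 30.5% and 45.3%.

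Light-treated colon against light-treated lymph node gave the clearest differences. The alpha and beta chains, all 3 CD3 genes and Lat were lower in the colon, while Cd4 and Ptprc were lower by amounts within their counting error. Of the 8 genes, 6 were at least 2-fold lower and 0 at least 2-fold higher, beside 19.2% lower and 13.6% higher by that much among the 302 genes tested. The interval lay below 0 for the same 6 genes, beside 24.2% of all genes tested, and above 0 for 0 members beside 11.3%; 5 of the 8 met the minimum, the same ones as in the lymph node comparison, so 2 of the 6 lower genes, Cd3e and Cd3g, are outside the depth range of the genes they are set beside. Trac, Cd3d and Lat met that minimum through lymph node light, where they were high. They held 17.0, 13.9 and 15.9 molecule-equivalents there, against 5.67, 7.82 and 9.10 in colon light. Their place beside the shares of all genes is therefore a description alone. The median log2 ratio was -1.59 over the 8 genes and -0.33 over all genes tested.

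Trac was 5.15-fold lower in colon light, a log2 ratio of -2.36 (-4.17 to -1.06). Cd3e was at -2.26 (-4.29 to -0.81), Cd3d at -1.65 (-3.21 to -0.37) and Cd3g at -1.54 (-3.19 to -0.17). Lat was at -1.64 (-3.07 to -0.45) and Trbc2 at -1.29 (-1.95 to -0.67). Trbc1 was lower as well, at -1.64 (-2.81 to -0.64). Whether the giving of shared reads to Trbc1, to Trbc2 or to neither had a part was not tested. Cd4 was at -0.79 (-2.56 to 0.88) and Ptprc at -0.65 (-1.33 to 0.02).

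The summed 8 genes stood at 3139 CPM in colon light and 7917 CPM in lymph node light, a log2 ratio of -1.33 (-1.68 to -0.99), and at -1.34 without Trbc2. The 3 CD3 genes alone came to -1.86 (-2.75 to -1.08), and Trac, Trbc1 and Trbc2 together to -1.55 (-2.07 to -1.07). Median-of-ratios and TMM scaling raised the ratios by up to 0.54 or 0.55 and left the summed ratio below 0, at -0.79 by the median of ratios and -0.78 by TMM. With them 3 of the 8 intervals lay below 0 (Trac, Trbc2 and Cd3e), and the count of all genes at least 2-fold higher and lower changed from 41 and 58 to 67 and 21, or 68 and 21 with TMM. Relative to the median of all genes, Trac lay at -2.03, Cd3e at -1.92, Cd3d at -1.32, Lat at -1.31, Cd3g at -1.21, Trbc2 at -0.95, Cd4 at -0.46 and Ptprc at -0.31.

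Markers of other cells differed between these libraries too. Of 10 myeloid markers, 5 had a count in colon light and 3 in lymph node light, and they summed to 0.215% of colon light (0.171 to 0.266%) and 0.0434% of lymph node light (0.0200 to 0.0821%). Lyz2, the lysozyme gene of macrophages and neutrophils, was at 1198 CPM in colon light and 293 CPM in lymph node light, a log2 ratio of 1.97 (0.81 to 3.53). Cd14, Itgam and Adgre1, which mark monocytes and macrophages, had no count in either. The 4 class II genes, active in antigen-presenting cells, summed to 0.199% of colon light and 0.0159% of lymph node light. Their part in the lower level of the receptor genes was not tested. B-cell markers (1 of 8 with a count in each, Cd79a and Ms4a1 at 0), CD8 and NK markers (4 and 3 of 9), epithelial and stromal markers (2 and 1 of 11) and erythroid markers (2 and 0 of 5) each took at most 0.0242% of either library.

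The wider receptor pathway was read from 6 lists with 89 genes. Few of them were deep enough to compare. Between light and control in the lymph node, 72 had a count, 3 met the minimum of 20 molecule-equivalents, and 0 of those 3 were 2-fold changed or had an interval that left out 0. Among them were Trbc1, given above, and Fyb, an adaptor that links the receptor to integrins, at 0.89 (-0.55 to 2.72). Prkcq did not meet the minimum and is named after its value was seen. Its interval lay below 0, at -2.28 (-6.05 to -0.14), on 1.90 molecule-equivalents after light, which is under the floor. Intervals are not adjusted for the 72 genes looked at.

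Between the light-treated colon and lymph node, 80 had a count and 6 met the minimum. Of those 6, 2 were at least 2-fold higher in the colon and 1, Trbc1, at least 2-fold lower, beside 13.6% and 19.2% of all genes tested. The 2 higher genes, Nfkbia and Ptpn22, met the minimum through colon light, where they were high, so their count is a description alone. The same holds for Trbc1, which met it through lymph node light, with 22.3 molecule-equivalents against 12.9 in colon light. Nfkbia, which encodes the inhibitor that holds NF-kB in the cytoplasm, was at 605 CPM in colon light and 167 CPM in lymph node light (log2 ratio 1.76, 0.23 to 4.00). Ptpn22, a phosphatase that restrains Lck and ZAP-70, was at 506 CPM in colon light and 164 CPM in lymph node light (1.54, -0.04 to 3.83). Fyb was at -0.87 (-1.93 to 0.15) and Ets1, a transcription factor of T cells, at -0.75 (-2.09 to 0.54).

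Kinases of the first step were counted in few molecules and are named here after their values were seen. Lck was carried by 7 molecules in colon light and 13 in lymph node light, at 151 and 532 CPM, a log2 ratio of -1.72 (-3.55 to -0.26), and by 5 molecules in lymph node control (405 CPM). Zap70, the kinase that binds phosphorylated CD3 chains, had 4 molecules in colon light, 4 in lymph node light and 2 in lymph node control. Cd247, which encodes the zeta chain, the remaining signalling chain of the complex, had 1 molecule in colon light, 3 in lymph node light and 3 in lymph node control. Cd28, the costimulatory receptor, had no count in any of the 4 libraries.

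Summed by list, most of the pathway lay nearer to 0 than the 8 genes did. Against lymph node light, colon light was at -1.62 for other receptor chains (-2.72 to -0.67, mostly Trbc1), -0.10 for proximal kinases and phosphatases (-0.72 to 0.55), -0.43 for adaptors of the LAT complex (-0.96 to 0.11) and 0.49 for costimulatory and co-inhibitory receptors (-0.20 to 1.24). Downstream NF-kB, Ras and calcium genes were at -0.41 (-0.80 to -0.02) and T-cell development regulators at -0.50 (-1.15 to 0.16). The interval of the 8 genes, -1.68 to -0.99, did not overlap those of the kinases, the LAT adaptors, the costimulatory receptors or the downstream genes; the lists' differences from the 8 genes were not tested. In the lymph node, light over control, the intervals of all 6 lists included 0, with ratios from -0.84 (costimulatory and co-inhibitory receptors) to 0.14 (development regulators).

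**Figure D4:**
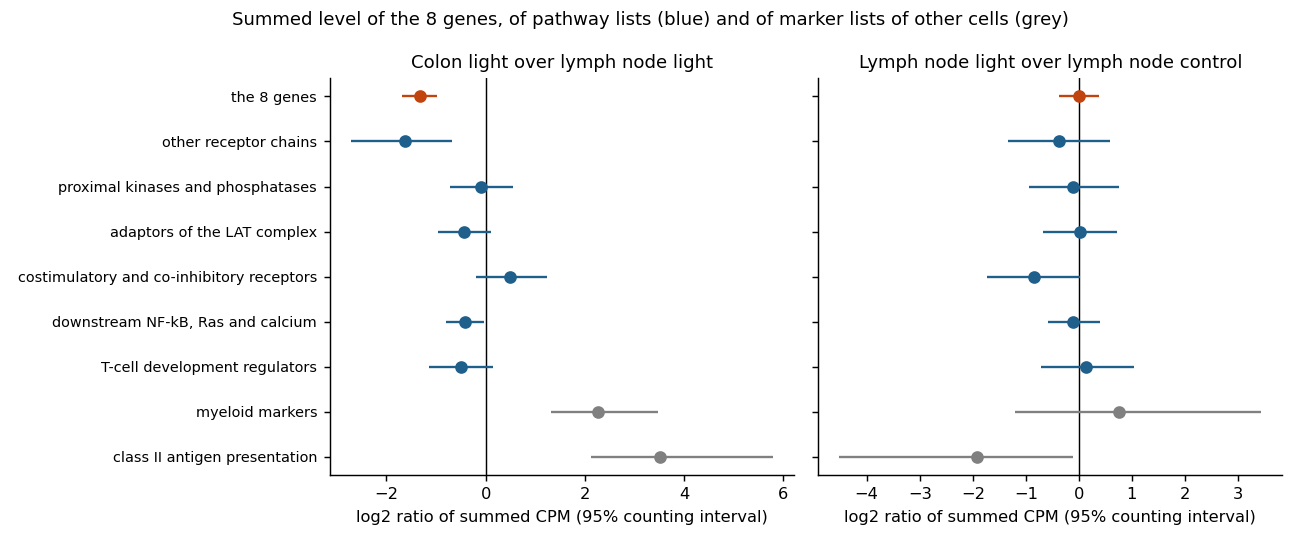
Log2 ratio of summed CPM (horizontal axis) of the 8 genes (top row), 6 pathway lists and 2 marker lists of other cells (rows), for colon light over lymph node light at left and lymph node light over lymph node control at right, with 95% counting intervals. At left the 8 genes (-1.33) and the other receptor chains (-1.62) lie lowest and both marker lists lie above 0; at right the class II list (-1.92) is the only one whose interval leaves out 0.

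Colon light against colon control rested on 4 molecules in the control. Trbc2 was at 981 CPM in colon light and 108 CPM in colon control (log2 ratio 2.94, 0.19 to 10.84), Ptprc at 1092 and 240 CPM (2.09, -0.01 to 6.08) and Lat at 232 and 129 CPM (0.75, -2.23 to 7.48). All 3 control values were under the floor of 489 CPM. For Trac no fold is given, since its 144 CPM in colon light lay below what a count of 0 allows in the colon control. The 4 usable genes summed to 2449 CPM in colon light and 477 CPM in colon control (2.31, 0.75 to 4.70). Even this control sum, of 2.93 molecule-equivalents, was under the floor. Myeloid markers summed to 0.215% of colon light and 0.0618% of colon control (1.76, 0.35 to 3.77) and class II genes to 0.199% and 0.0219% (3.06, 0.94 to 7.35), and their part was not tested. The class II sum in colon control rested on 1.35 molecule-equivalents, also under the floor. Among the 207 genes tested, 75.8% were higher in colon light by 2-fold or more and 14.5% lower, with a median of 2.19. Trbc2 and Ptprc met the minimum through colon light alone, and Trac and Lat did not meet it. The interval lay above 0 for 1 of the 4 members, Trbc2, beside 40.1% of all genes tested, and below 0 for 0 members beside 14%.

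The control libraries were compared over the same 4 genes, and only Trbc2 was lower in colon control by more than its counting error. Trbc2 was at 108 CPM in colon control and 3592 CPM in lymph node control (-4.47, -12.71 to -2.07). Ptprc was at 240 and 764 CPM (-1.47, -5.71 to 0.85), Lat at 129 and 649 CPM (-1.92, -9.00 to 0.83), and Trac had no line in the colon control table beside 726 CPM in lymph node control. The sum was 477 CPM in colon control, which is under the floor, and 5731 CPM in lymph node control (-3.44, -5.94 to -1.96). Among 89 genes tested, 67.4% were lower in colon control by 2-fold or more and 29.2% higher. The interval lay below 0 for 1 of the 4 members, Trbc2, beside 67.4% of all genes tested, and above 0 for 0 members beside 28.1%. With the repeated lines taken as deposited, the summed ratio would have been -0.79 for colon light over colon control and -0.54 for colon control over lymph node control.

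The light ratio in the colon minus that in the lymph node was 3.51 for Trbc2 (-0.04 to 7.05), 0.95 for Ptprc (-1.65 to 3.55) and 0.53 for Lat (-3.01 to 4.07). All 3 intervals included 0, so a different response in the tissues was not detectable at this depth.

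Genes whose level ran most like the summed 8 genes were sought among 49 genes with at least 60 molecule-equivalents over colon light, lymph node light and lymph node control, by distance in centred log2 CPM over these 3 libraries. The nearest 5 were S100a6 at a distance of 0.15, Crip1 at 0.16, Cd52 at 0.18, Cfl1 at 0.20 and Ptma at 0.21. S100a6 was at 560 CPM in colon light, 1398 CPM in lymph node light and 1254 CPM in lymph node control, and Cd52 at 598, 1286 and 1410 CPM in the same libraries. With 3 libraries this is a description of levels alone.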

How the data were processed

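Per the labels' protocols, poly(A) RNA of sorted CD4 T cells was primed with oligo-dT probes that hold a barcode of 7 bases and a molecular identifier of 8 bases. The submitters' processing notes name FastQC, STAR 2.5.1a and mm10. Read counting and any collapsing of identifiers are not given in the sources used here. Deposited by the authors were whole-number counts, a gene per line and a barcode per column, in tables totalling 1959296 (colon light), 435847 (colon control), 1068864 (lymph node light) and 971227 (lymph node control). Both lymph node tables close with a line that names no gene and repeats the column totals (49.9993% of the table with it counted in); it was left out, as was Foxp3, whose lines repeat between tables. A further sample, a sheet of 16 barcodes pooled over tissues and treatments, entered no comparison.

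Each gene's line was written as a whole-number sum of column sets shared by several genes. This was exact for 98.8% of genes in colon light, 98.1% in colon control, 99.98% in lymph node light and 99.1% in lymph node control, and for 0 of 300 lines in each library after their values were moved between columns. The column sets were taken from these same lines, so these figures are no independent check that the sets are molecules. Exact genes held 55.6%, 54.3%, 99.997% and 84.4% of counts in the same order. All member lines in use were exact but that of Trbc2 in colon light, missed by 0.65% of its size. The log2 ratio of CPM used a prior of 0.5 molecule-equivalents scaled to depth. Its 95% interval is the exact binomial (Clopper-Pearson) one on molecule-equivalents, and the interval of a level is the exact Poisson one; the interval of the difference of light ratios is a normal one on the log scale. All cover counting error only, and amplified reads whose identifiers may not have been collapsed are not independent molecules. With 1 library a group there is no test and no p-value. The code was tested on simulated data.

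All 8 members are named; of the other lists, up to 6 genes each with at least 20 molecule-equivalents over a comparison's libraries, with 1 left out that is not reported here. The members, lists and rules were chosen with earlier results of these data known. Alternatives were other scalings (TMM and median of ratios), totals without 45S, Gm12374 and mitochondrial genes, priors of 2 and 0.1, shared barcode columns, thinning, recovered molecules counted once, deposited sums as raw counts, repeated lines kept, sums without Trbc2 or the member of largest count and, chosen after seeing the data, without Ptprc. Gene names matched GENCODE M21 for 10136 of 10291 genes; promoters are RefSeq's, found for 5 of 8 members. Tools were scipy 1.17.1, numpy 2.4.6, biopython 1.88, matplotlib 3.10.9 and pandas 2.3.3 under Python 3.11.15, with edgeR 4.0.16 for TMM factors only.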

Additional observations from a re-analysis of the deposited data

How the results depend on the processing

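The summed 8 genes of lymph node light over lymph node control had a log2 ratio of -0.004 and moved to 0.48 by the median of ratios and 0.47 by TMM, with intervals above 0; without Trbc2 it was 0.34 and without Ptprc -0.21, with intervals that included 0. The cause was not tested. Colon light over lymph node light, -1.33, moved to -0.79 by the median of ratios, -0.78 by TMM and -0.95 with totals that leave out 45S, Gm12374 and mitochondrial genes, and kept an interval below 0 under all alternatives run. Colon light over colon control turned from 2.31 to -0.79, and colon control over lymph node control moved from -3.44 to -0.54, when the repeated lines were taken as deposited, which adds the lymph node control's Cd3d, Cd3e, Cd3g and Cd4 counts to the colon control. Leaving out Ptprc gave 2.41 for colon light over colon control, -1.59 for colon light over lymph node light and -4.09 for colon control over lymph node control.

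Single members in the lymph node comparison kept their side of 0, or the interval that includes it, in 62 of 72 values over 9 alternatives, and in 60 of 72 for colon light over lymph node light, 28 of 36 for colon light over colon control and 31 of 36 for colon control over lymph node control. Taking deposited sums as raw counts narrows every interval, since each molecule is then counted many times. Without a minimum depth, genes at least 2-fold higher and lower numbered 2468 and 1687 of 6888 in the lymph node comparison and 2351 and 3038 of 8725 for colon light over lymph node light, against 1 and 3 of 25, and 3 and 2 of 42, with at least 100 molecule-equivalents. For colon light over colon control these were 3645 and 1806 of 7945, and 18 and 7 of 26; for colon control over lymph node control 1730 and 2881 of 5272, and 7 and 5 of 13. The alternative of shared columns was not run for the colon control, which shares 4 or 5 barcodes with any other library. No paired analysis was possible because each group holds 1 library. No library could be left out for the same reason.

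Depth limits these results: 3 molecule-equivalents correspond to 76.4 to 489 CPM over the 4 libraries, and most members rest on fewer than 20 molecules in a library.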
